A study of Mus musculus with 9 samples.

Results

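The immunoglobulin light chain variable (V) genes were taken from the deposited expression table as the rows of the V gene biotype whose names begin with Igkv (kappa) or Iglv (lambda). There were 78 of them among 41096 genes, 76 Igkv genes in 19 families and 2 Iglv genes, Iglv2 and Iglv3. The RNA came from cells washed out of the peritoneal cavity of APOE-/- mice, in which the lipoprotein ligand gene Apoe is disrupted, and the labels name these cells peritoneal macrophages. The 5 control samples came from mice given citrate buffer (nondiabetic). The 4 diabetic samples came from mice given intraperitoneal streptozotocin at 40 mg/kg, which destroys the insulin-secreting beta cells. Injections ran over 5 consecutive days, starting at 8 weeks of age, and a western diet for 8 weeks followed in both groups. All mice carried the same Apoe genotype and received 1.5 mL of 3% thioglycollate, which provokes a sterile peritonitis, and their cells were harvested 3 days later in 10 mL of buffered saline. No sort and no adherence to plastic is mentioned in the labels, so lymphocytes of the cavity were not removed by a stated step. The labels do not say whether a sample was 1 mouse or a pool, and p-values therefore reflect only how these samples vary.

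Each antibody pairs 2 kinds of protein chain, heavy and light. A developing B cell builds its light chain by joining 1 V gene to a short joining gene, first at the kappa locus and, if that fails to give a usable chain, at the lambda locus. The joined V region is then spliced to a constant gene, Igkc for kappa. B cells and their plasma cell descendants are the cells that make these transcripts, so V gene RNA in a mixed sample shows both how much light chain message the B cells contribute and which V genes they use. The peritoneal cavity of the mouse is known for B-1 cells, long-lived B cells whose natural antibodies use a restricted set of V genes. Igkv14-126 and Igkv4-91 are known from B-1 antibodies to phosphatidylcholine, and Igkv7-33 from antibodies to phosphorylcholine, 2 lipid-related targets.

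The germline sequences of 7 kappa V genes on which the results turn are shown, as the last 297 bases of each spliced transcript in the C57BL/6J reference (GENCODE M21, GRCm38), read 5′ to 3′ on the coding strand. Capitals mark the bases after the codon of the second conserved cysteine, where the third complementarity-determining region (CDR3) of the antibody begins before the joining gene adds the rest. Igkv14-126 and Igkv4-91 are shown as the genes of the B-1 antibodies that were abundant here, and Igkv14-111 as the closest relative of Igkv14-126. The other 4 are the V genes that passed the test between the groups.
Igkv14-126: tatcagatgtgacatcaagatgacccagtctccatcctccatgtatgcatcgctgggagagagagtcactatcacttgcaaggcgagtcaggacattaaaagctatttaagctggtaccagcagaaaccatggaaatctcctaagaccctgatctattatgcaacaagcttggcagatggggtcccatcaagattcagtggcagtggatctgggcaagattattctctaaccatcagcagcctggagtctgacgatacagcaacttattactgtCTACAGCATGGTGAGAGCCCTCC
Igkv14-111: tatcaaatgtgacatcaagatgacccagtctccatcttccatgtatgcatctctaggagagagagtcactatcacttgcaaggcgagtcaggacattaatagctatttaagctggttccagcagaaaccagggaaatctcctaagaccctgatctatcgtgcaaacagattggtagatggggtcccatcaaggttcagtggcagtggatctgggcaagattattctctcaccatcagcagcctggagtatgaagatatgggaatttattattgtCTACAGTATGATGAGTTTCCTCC
Igkv4-91: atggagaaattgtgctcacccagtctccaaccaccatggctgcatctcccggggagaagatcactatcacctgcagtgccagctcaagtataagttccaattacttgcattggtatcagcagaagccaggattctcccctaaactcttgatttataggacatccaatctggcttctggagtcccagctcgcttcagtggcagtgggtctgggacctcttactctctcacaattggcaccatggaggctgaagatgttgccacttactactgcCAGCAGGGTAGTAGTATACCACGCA
Igkv3-12: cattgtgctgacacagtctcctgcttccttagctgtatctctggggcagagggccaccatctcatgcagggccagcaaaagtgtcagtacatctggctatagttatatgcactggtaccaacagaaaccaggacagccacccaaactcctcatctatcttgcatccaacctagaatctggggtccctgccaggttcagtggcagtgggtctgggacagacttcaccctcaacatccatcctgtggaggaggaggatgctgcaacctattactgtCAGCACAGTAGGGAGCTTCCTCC
Igkv12-44: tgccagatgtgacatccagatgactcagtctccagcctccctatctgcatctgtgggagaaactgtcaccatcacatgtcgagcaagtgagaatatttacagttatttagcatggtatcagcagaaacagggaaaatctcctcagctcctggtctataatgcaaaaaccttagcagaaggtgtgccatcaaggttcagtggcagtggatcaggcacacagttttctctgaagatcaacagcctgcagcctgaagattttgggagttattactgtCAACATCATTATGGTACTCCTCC
Igkv6-32: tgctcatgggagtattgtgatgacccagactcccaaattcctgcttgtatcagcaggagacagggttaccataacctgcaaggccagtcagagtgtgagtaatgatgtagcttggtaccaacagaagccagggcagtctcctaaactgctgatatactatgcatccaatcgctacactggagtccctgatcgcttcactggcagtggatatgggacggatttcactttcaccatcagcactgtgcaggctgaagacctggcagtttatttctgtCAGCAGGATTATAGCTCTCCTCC
Igkv5-48: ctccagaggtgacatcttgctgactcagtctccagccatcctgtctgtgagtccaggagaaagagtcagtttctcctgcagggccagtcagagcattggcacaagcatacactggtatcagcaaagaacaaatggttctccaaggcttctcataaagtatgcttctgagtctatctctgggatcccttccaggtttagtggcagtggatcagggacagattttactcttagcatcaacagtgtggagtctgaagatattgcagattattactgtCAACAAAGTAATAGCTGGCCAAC
In GRCm38 the genes lie at chr6:67896172-67896642 (Igkv14-126, plus strand), chr6:68256389-68256869 (Igkv14-111, plus), chr6:68768555-68769103 (Igkv4-91, minus), chr6:70518250-70518849 (Igkv3-12, plus), chr6:69814631-69815154 (Igkv12-44, minus), chr6:70074024-70074603 (Igkv6-32, minus) and chr6:69726573-69727138 (Igkv5-48, minus). Each span holds the leader and V exons with the intron between them. The cysteine codon was found by searching the last 60 bases of the coding strand for 8 spellings of Tyr-Tyr-Cys, Tyr-Phe-Cys or Tyr-Ile-Cys, among them TATTACTG, which 64.7% of the 136 light chain V transcripts in GENCODE hold there. At least 1 of the 8 was present in 97.1%. Only the coding strand was searched. Igkv14-126 and Igkv14-111 are 91.6% identical over the whole transcript, against a median of 64.6% for kappa genes of different families and 87.2% within a family.

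V genes are short, with a median of 360 bases in the table, and their reads are few. FPKM counts fragments per kilobase of transcript length for every 1e6 reads. At the median length 1 FPKM stood for 5.05 to 5.80 reads, and the libraries held 14156421 to 16169060 reads in genes. GENCODE names 103 light chain V genes, and the sums, shares and effective number of V genes below cover the 78 members only. Of these members, 62 had at least 1 read in some sample, 23395 reads in all. The remaining 16 had 0 reads in all 9 samples, and 11 of those share bases with another V gene model, where the authors' counting may have dropped or moved reads. The same limit holds for 6 members with reads, among them Igkv8-24, Igkv8-27 and Igkv8-19. A count of 0 allows up to 3 reads per library. A gene was tested if 4 or more samples reached an FPKM of 1. That left 43 members, which held 97.8% of the member reads, with 49 to 1910 reads each over all samples. The 19 others with reads had at most 69. All 43 reached FPKM 1 in at least 1 control sample, 7 of them in fewer than 4. Igkv11-125 was the 1 member that reached it in every diabetic sample and in fewer than 4 control samples. Close copies also limit single values: 16 of the members with reads have another V gene in GENCODE that is at least 95% identical, and reads of such pairs may be split. Of the genes described most, Igkv3-12 is 96.7% identical to Igkv3-7, which had 0 reads, and Igkv12-44 is 95.7% identical to Igkv12-41.

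Macrophage, T cell and B cell genes were all present. Summed FPKM of 11 macrophage markers ran from 2072 to 2780 in the control and from 1621 to 2746 in the diabetic samples, and that of 16 general B cell genes from 774 to 1436 and from 953 to 1994. Summed T cell markers were 160 to 226 in the control and 293 to 1051 in the diabetic samples, without overlap. Apoe, which the labels give as disrupted in both groups, was read at 231 to 373 FPKM in control and 135 to 296 in diabetic samples, and the part of the gene deleted is not given in the sources used here. Diabetic 3 lay nearer to the control samples than the other diabetic samples did for most of the genes described below. These are bulk samples, in which more cells of a type and more RNA per cell cannot be told apart.

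Kappa light chain RNA was more abundant in 3 of the 4 diabetic samples. Igkv genes together held 2097, 1442, 2448, 1338 and 2176 reads in control 1 to 5. In diabetic 1 to 4 they held 4156, 3586, 1408 and 3967. On the authors' scaling this was 127 ± 31.4 reads per 1e6 reads (SD, n = 5) against 215 ± 78.2 (SD, n = 4), a ratio of 1.69. Diabetic 1, 2 and 4 stood above every control sample and diabetic 3 stood inside the control range. The constant gene Igkc, to which every kappa V gene is spliced, was at 1335, 868, 1521, 1019 and 1337 FPKM in the control and at 3174, 3295, 1577 and 3241 FPKM in the diabetic samples, and here all diabetic samples were above all control samples. Igkc rose (log2 fold change 1.18, SE 0.25, limma adjusted p = 0.0247). The call was lost, with adjusted p of 0.0567 to 0.0816, when control 4, diabetic 1, diabetic 2 or diabetic 4 was left out. It was also lost with quantile normalization (limma adjusted p = 0.0539), no filter on low values (0.0634) and a replicate block (0.120). Igkc passed under 13 of the 20 alternative settings.

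**Figure D1:**
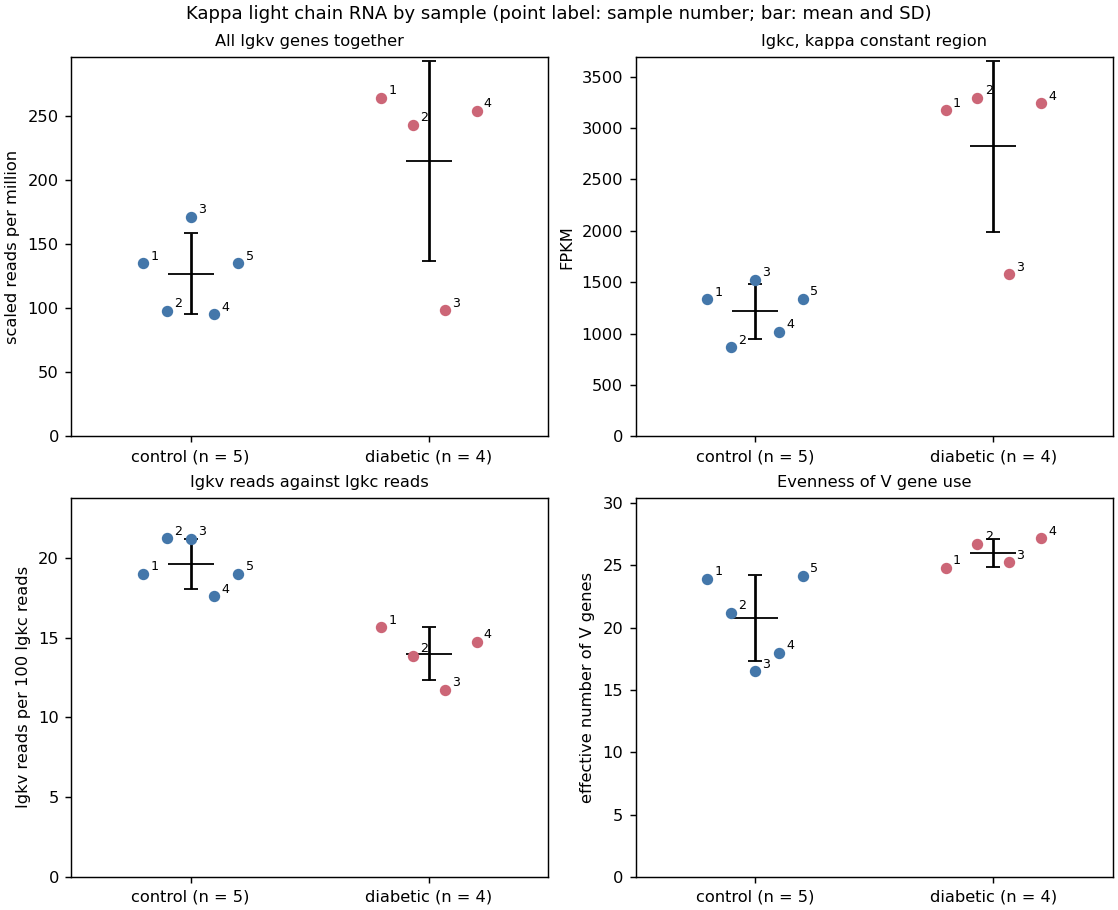
Each point is 1 sample, numbered within its group (5 control, blue; 4 diabetic, red), and bars give the mean and SD. The panels show Igkv reads per 1e6 reads on the authors' scaling, Igkc in FPKM, Igkv reads per 100 Igkc reads, and the effective number of V genes. Diabetic 3 falls among the control samples in the first panel, while in the other 3 the groups do not overlap.

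The Igkv and Igkc differences were not of the same size. For every 100 reads on Igkc there were 19.0, 21.2, 21.2, 17.6 and 19.0 reads on Igkv genes in the control samples and 15.7, 13.9, 11.7 and 14.7 in the diabetic samples. The groups did not overlap (19.6 ± 1.58 against 14.0 ± 1.68). No p is given for these summed values, since the members were chosen with results known. The Igkv sum covers only V genes with a named row, while Igkc collects all kappa RNA. Reads of kappa V genes without a named row are therefore missing from the ratio. The 8 unnamed V gene rows on chromosomes 6 and 16 held only 6 reads over all samples. Reads of V genes with no row at all cannot be counted here. Relative to Cd79a, the signalling partner of the B cell receptor, Igkc was at 3.58 ± 0.66 FPKM per FPKM in the control and 5.82 ± 0.50 in the diabetic samples, again without overlap. Igkv reads per 1e6 reads relative to Cd79a FPKM did overlap, at 0.376 ± 0.087 and 0.433 ± 0.060.

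Lambda light chains were a small part of the V reads. Iglv3 was at 9.97, 5.88, 14.0, 8.97 and 10.4 FPKM in the control and 16.4, 30.1, 8.99 and 30.5 in the diabetic samples. Diabetic 1, 2 and 4 were above the controls and diabetic 3 was not (log2 fold change 0.95, SE 0.35, limma adjusted p = 0.147; 0.0177 without diabetic 3). Iglv2 had 0 reads, and its model shares bases with an unnamed V gene model. Iglv1 is not a named row of the table and was not analysed here. Lambda made up 2.86 ± 0.44% of light chain V reads in the control and 3.63 ± 1.02% in the diabetic samples, with overlap. Of the light chain constant RNA, in summed FPKM, lambda made up 19.3 ± 1.53% and 16.1 ± 1.27%, without overlap and in the other direction. The V and constant shares do not measure the same thing here, because they rest on different sets of lambda genes.

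Among the 43 tested V genes, 4 rose in the diabetic samples and 0 fell at a limma adjusted p below 0.05. That is 9.30% of them, against 2.68% of all 11193 tested genes that rose and 2.08% that fell. At an unadjusted p below 0.05, 24 were higher and 1, Igkv14-126, was lower, against 11.1% and 11.3% of all tested genes. By limma-voom on the reads recovered from the table, 6 were higher and 0 lower, against 358 and 302 of all 11193 tested genes. The log2 fold change was above 0 for 40 of the 43, or 93.0%, against 47.7% of all genes, and its median was 0.84 against -0.013. Values ran from -1.20 to 1.74. The 3 below 0 were Igkv14-126, Igkv8-30 and Igkv1-122. Diabetic 1, 2 and 4 were above every control sample for 28 of the 43, and this held for 10.3% of all tested genes. With diabetic 3 included, 4 members had every diabetic sample above every control (4.82% of all genes) and 1 had every diabetic sample below (4.6% of all genes). Diabetic 3 was the lowest diabetic sample for 41 of the 43. It was inside the control range for 33, above it for 4 and below it for 6. Without diabetic 3, 23 members were called higher, against 5.53% of all genes. Leaving out control 2 as well gave 22, against 5.65%. Without diabetic 1, 2 or 4, 2 were called higher in each case, against 164, 132 and 97 of all 11193 tested genes.

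**Figure D2:**
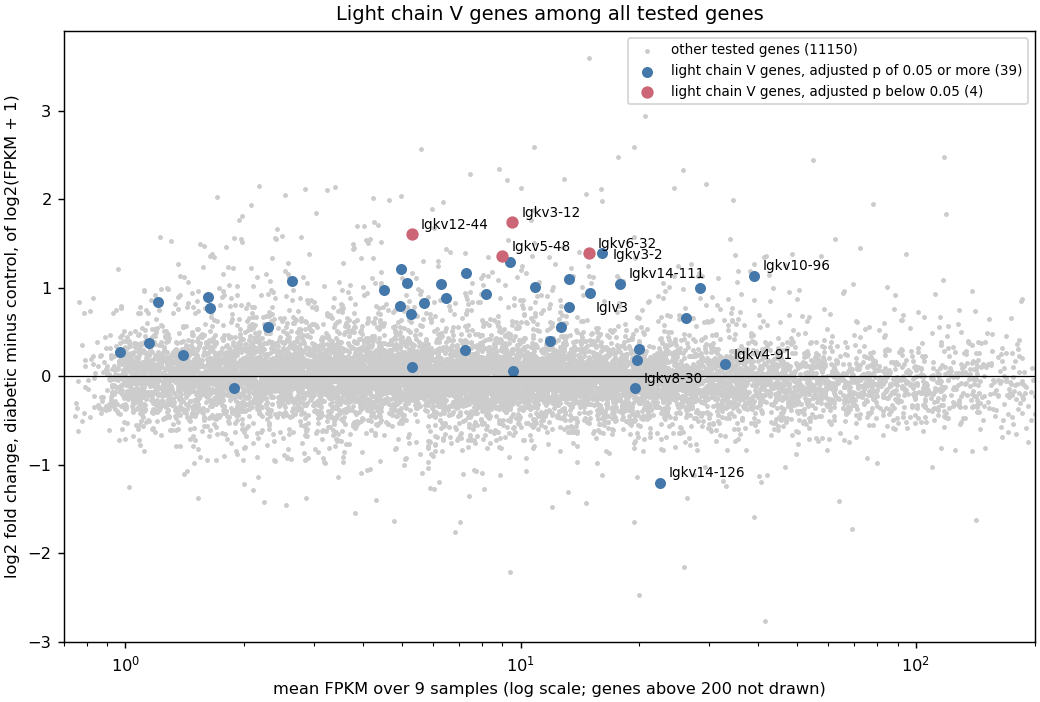
The x axis is the mean FPKM over all 9 samples on a log scale and the y axis the log2 fold change, diabetic minus control, of log2(FPKM + 1). Grey points are other tested genes, blue points the 39 light chain V genes that did not pass and red points the 4 that did. Most V genes lie above 0, and Igkv14-126 lies lowest at -1.20.

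Igkv3-12 had the largest fold change. It was at 3.05, 4.35, 4.88, 3.37 and 3.80 FPKM in the control and 18.4, 16.99, 6.81 and 24.1 FPKM in the diabetic samples, from 17 to 135 reads. All diabetic samples exceeded all controls, with diabetic 3 closest to them (log2 fold change 1.74, SE 0.29, limma adjusted p = 0.0138). Igkv12-44 was at 3.53, 2.20, 1.05, 1.42 and 3.56 FPKM in the control and 7.46, 7.60, 7.32 and 13.6 FPKM in the diabetic samples, from 6 to 85 reads. Here diabetic 3 stood with the other diabetic samples and the groups did not overlap (1.61, SE 0.27, adjusted p = 0.0139). Both genes passed with any 1 sample left out. With a replicate block neither passed (limma adjusted p = 0.0881 for Igkv3-12 and 0.0623 for Igkv12-44).

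Igkv6-32 was at 7.21, 10.2, 10.9, 5.06 and 7.12 FPKM in the control and 25.5, 31.3, 12.6 and 23.8 FPKM in the diabetic samples, also without overlap (log2 fold change 1.39, SE 0.27, limma adjusted p = 0.0207). Its call was lost, at adjusted p of 0.0547 to 0.0689, without diabetic 1, 2 or 4. Igkv5-48 was at 6.44, 3.40, 3.11, 4.95 and 5.69 FPKM in the control and 18.2, 17.3, 6.02 and 15.8 FPKM in the diabetic samples. Diabetic 3 lay below control 1 (1.36, SE 0.31, adjusted p = 0.0355). The call held only when control 1 or diabetic 3 was the sample left out, and otherwise adjusted p was 0.0551 to 0.109. The fourth member without overlap, Igkv11-125, named here after its values were seen, had 0 to 8 reads in the control and 11 to 14 in the diabetic samples (log2 fold change 0.89, adjusted p = 0.068).

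As a share of all light chain V reads, which sets aside the overall amount, Igkv3-12 was 0.79 to 1.56% in the control and 2.40 to 3.25% in the diabetic samples. Igkv12-44 was 0.24 to 1.03% and 1.10 to 2.88%, and Igkv5-48 was 0.63 to 1.80% and 2.13 to 2.45%. None of these 3 shares overlapped between the groups, and in each diabetic 3 lay with the other diabetic samples. These genes were picked by their calls in the same samples, so their shares are not separate support. Among all other members only Igkv4-90 and Igkv18-36, named after their values were seen, had shares without overlap. Igkv4-90 was higher (0 to 0.093% against 0.118 to 0.320%) and Igkv18-36 lower (0.119 to 0.670% against 0 to 0.107%). Both were under the filter. The share of Igkv6-32, 1.87 to 3.73% against 3.28 to 4.53%, did overlap.

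Igkv14-126 went the other way. It was at 18.5, 19.9, 77.5, 27.5 and 15.3 FPKM in the control and 8.53, 14.8, 11.5 and 9.31 FPKM in the diabetic samples. Every diabetic sample was below every control sample and control 3 stood far above the rest. The ratio of means was 0.348, but the gene did not pass (log2 fold change -1.20, SE 0.41, limma adjusted p = 0.124), and it passed under none of the 20 alternative settings. The log2 fold change stayed between -1.39 and -0.82 with any 1 sample left out. Its share of light chain V reads was 4.78, 7.12, 15.7, 9.96 and 3.93% in the control and 1.13, 2.08, 4.05 and 1.25% in the diabetic samples. Diabetic 3, at 59 of 1457 reads (exact 95% binomial interval 3.10 to 5.19%), lay above control 5, at 88 of 2240 reads (3.16 to 4.82%), and the other 3 diabetic samples lay below all controls. These intervals cover counting error only.

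Igkv14-111, the nearest relative of Igkv14-126 in sequence, was at 15.9, 9.41, 10.8, 6.19 and 15.4 FPKM in the control and 28.001, 31.5, 10.8 and 32.6 FPKM in the diabetic samples (log2 fold change 1.05, SE 0.35, limma adjusted p = 0.115; 0.0110 without diabetic 3). Diabetic 1, 2 and 4 were above all controls. The abundant Igkv10-96 was at 35.7, 16.6, 26.5, 18.1 and 26.8 FPKM in the control and 62.0, 68.7, 28.03 and 68.4 FPKM in the diabetic samples (1.14, SE 0.30, adjusted p = 0.060; 0.00418 without diabetic 3). The ratio of Igkv14-126 to Igkv10-96, both in FPKM, was 0.519, 1.20, 2.92, 1.52 and 0.569 in the control and 0.138, 0.215, 0.411 and 0.136 in the diabetic samples. Those ratios did not overlap, and diabetic 3 was the diabetic sample nearest to the controls.

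Igkv4-91, the other V gene of phosphatidylcholine antibodies, showed no such order. It was at 14.7, 37.0, 50.7, 31.8 and 24.1 FPKM in the control and 43.9, 30.7, 17.8 and 45.5 FPKM in the diabetic samples (log2 fold change 0.14, SE 0.36, limma adjusted p = 0.85). Its sign changed when control 1, diabetic 1 or diabetic 4 was left out, to -0.096, -0.0026 and -0.019. As a share of V reads it was 3.80, 13.2, 10.3, 11.5 and 6.21% in the control and 5.81, 4.31, 6.25 and 6.12% in the diabetic samples. The control samples thus differed among themselves more than the diabetic samples did. Igkv7-33 had 0 to 10 reads per sample and was not tested. Igkv14-126 and Igkv4-91 together made up 8.58 to 25.95% of V reads in the control and 6.39 to 10.3% in the diabetic samples.

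**Figure D3:**
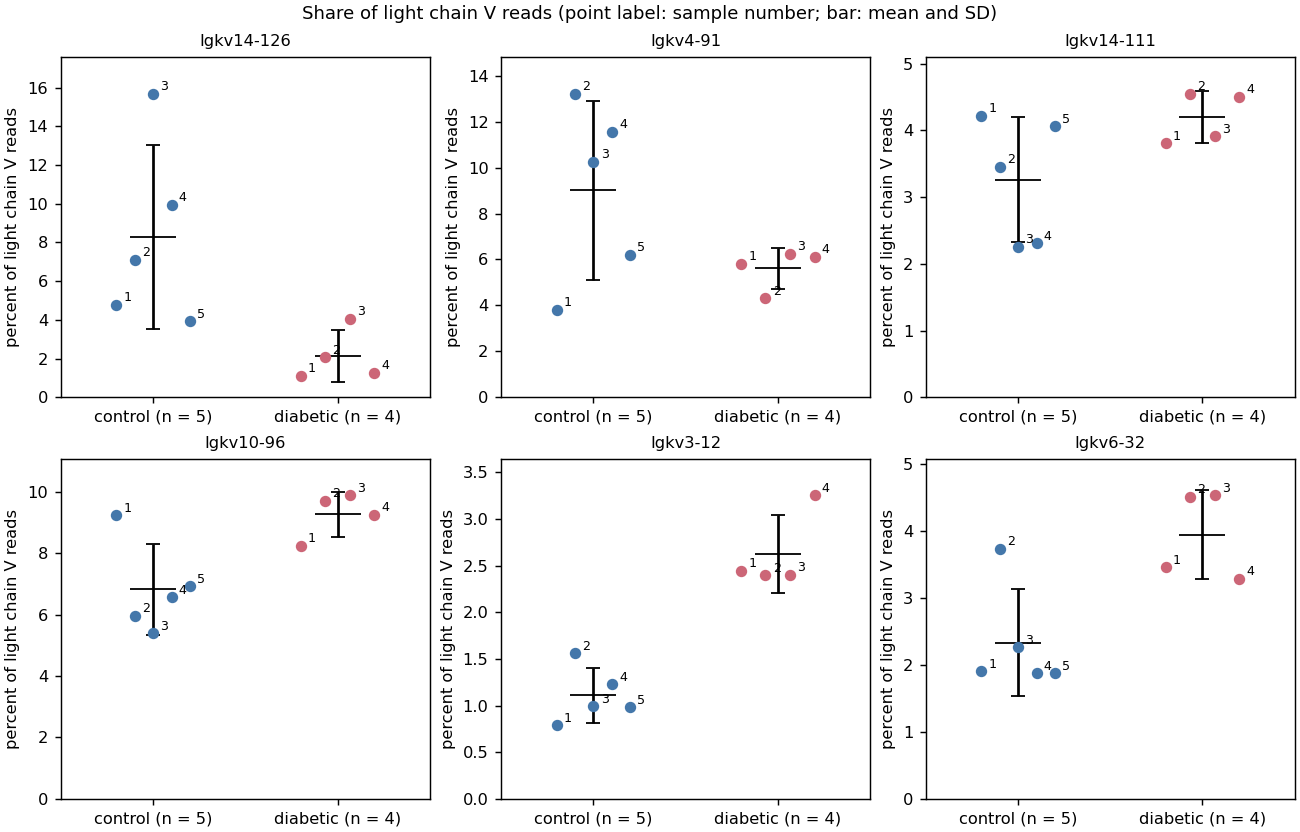
Each panel is 1 V gene, the y axis its share of light chain V reads in percent, each point 1 sample numbered within its group (5 control, 4 diabetic), with mean and SD. The Igkv14-126 share reaches 15.7% in control 3 and is at most 4.05% in the diabetic samples, while the Igkv3-12 share is higher in all 4 diabetic samples.

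Use of the V genes was more even in the diabetic samples. The effective number of V genes, the inverse Simpson index of the read shares, is the number of equally used genes that would give the same concentration. It was 23.9, 21.2, 16.5, 18.0 and 24.2 in the control and 24.8, 26.7, 25.2 and 27.2 in the diabetic samples, without overlap and with diabetic 3 among its group. On the Shannon index it was 28.9 ± 3.04 against 33.6 ± 1.21, also without overlap. The 5 highest genes of a sample held 38.9 ± 5.05% of the reads against 31.8 ± 1.82%, with overlap. When Igkv14-126 and Igkv4-91 were set aside the inverse Simpson number was 22.2 ± 2.41 against 24.5 ± 1.21, and the groups overlapped. At least 1 read was found for 49 to 54 members in the control and 52 to 59 in the diabetic samples.

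The shares of the next 6 genes in light chain V reads overlapped between the groups. Igkv8-24 was at 22.4, 14.5, 24.0, 15.2 and 16.3 FPKM in the control and 65.4, 40.9, 17.4 and 40.4 in the diabetic samples (log2 fold change 0.997, SE 0.32, limma adjusted p = 0.106; 0.00447 without diabetic 3). Igkv9-120 had a log2 fold change of 0.66 (SE 0.36, adjusted p = 0.31; 0.0301 without diabetic 3), Igkv8-27 of 0.31 (SE 0.45, adjusted p = 0.73) and Igkv8-19 of 0.18 (SE 0.39, adjusted p = 0.82). The gene models of Igkv8-24, Igkv8-27 and Igkv8-19 share bases, and Igkv8-19 is 97.6% identical to Igkv8-28, so their single values are uncertain. Igkv8-30 was at 32.4, 7.94, 23.0, 11.2 and 31.9 FPKM in the control and 20.9, 14.7, 13.1 and 19.9 in the diabetic samples, which all lay inside the control range (-0.13, SE 0.39, adjusted p = 0.87). Igkv3-2 stood out in 1 library. It was at 15.05, 10.1, 4.09, 5.32 and 4.43 FPKM in the control and 55.3, 18.5, 5.22 and 26.4 in the diabetic samples (1.39, SE 0.59, adjusted p = 0.205; 0.0333 without diabetic 3), and without diabetic 1 its log2 fold change was 0.91.

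By family, the number after the prefix, Igkv3 genes showed the largest ratio of the well-covered families. The 6 Igkv3 genes with reads held 7.13 ± 1.51 reads per 1e6 reads in the control and 22.3 ± 11.3 in the diabetic samples, a ratio of 3.13, with diabetic 3 at 7.41 inside the control range. Diabetic 1 was highest at 34.1, and Igkv3-2 had 268 reads there against 84, 23 and 127 in diabetic 2 to 4. The ratio was not recomputed without Igkv3-2. The Igkv10 pair was at 10.4 ± 3.27 and 23.6 ± 8.58 and the Igkv5 family at 4.005 ± 1.20 and 10.9 ± 5.09. Igkv14 was the large family whose mean was not higher, at 17.3 ± 9.41 and 16.96 ± 5.28 reads per 1e6 reads. Its share of V reads was 12.8 ± 3.93% and 7.84 ± 1.03%. Igkv8 and Igkv4, the largest families by reads, held 21.5 ± 3.73% and 14.7 ± 3.25% of V reads in the control and 17.2 ± 2.65% and 12.9 ± 1.49% in the diabetic samples, with overlap. The 4 genes that rose belong to 4 families, Igkv3, Igkv12, Igkv6 and Igkv5.

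**Figure D4:**
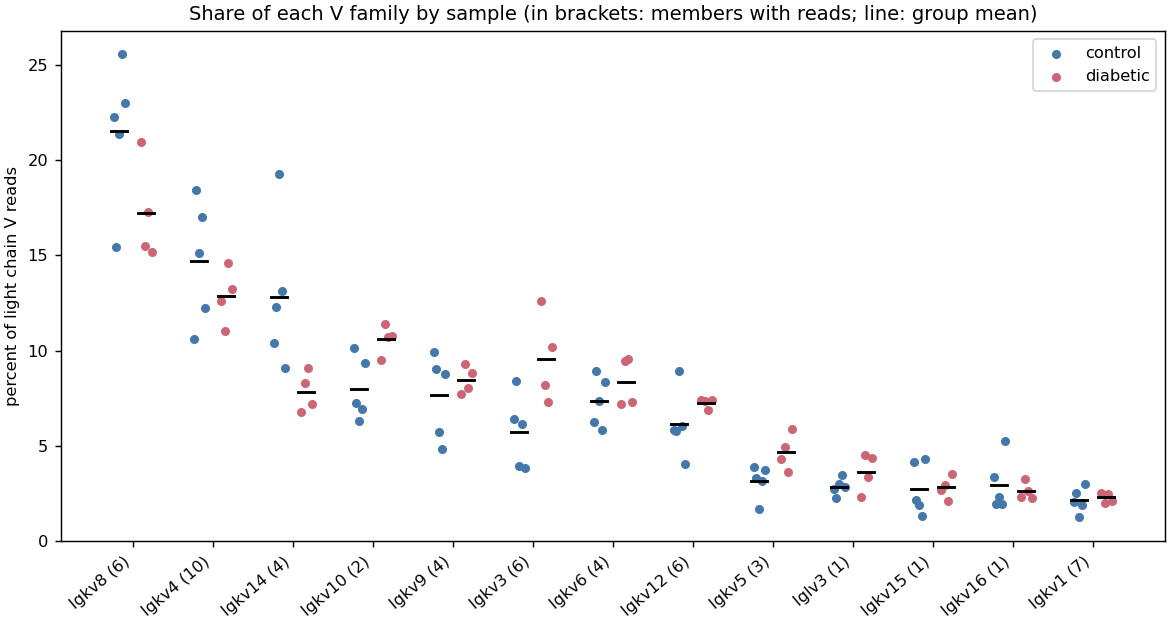
The y axis is the share of each family in light chain V reads in percent, by sample (5 control, blue; 4 diabetic, red), with a line at each group mean and the number of members with reads in brackets. Families with at least 500 reads are drawn, and the mean share of Igkv14 is 12.8% in the control and 7.84% in the diabetic samples, that of Igkv3 5.74% and 9.56%.

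Of the Igkv members, 74 lie on chromosome 6 in the table, 23.6 to 3857 kb from Igkc. The members' gene identifiers in the table carry the strain label C57BL6NJ, whereas the sequences shown above are from the C57BL/6J reference. Which build the table's positions follow was not settled, and distances are therefore the table's own. Igkv6-20 and Igkv17-121, which the table places on chromosomes 4 and 17, were left out. Genes at 1000 to 2000 kb from Igkc, which include Igkv12-44 and Igkv5-48, held 10.7 ± 1.91% of the Igkv reads in the control and 15.1 ± 1.20% in the diabetic samples. Genes beyond 3000 kb, which include Igkv14-126, held 18.3 ± 3.22% and 12.5 ± 1.69%. In both segments the groups did not overlap. Without Igkv14-126 the far segment held 10.3 ± 2.08% and 10.5 ± 0.83%. The 1000 to 2000 kb segment was not recomputed without Igkv12-44 and Igkv5-48, so its difference may rest on those genes rather than on position. Genes within 1000 kb held 34.4 ± 2.22% and 35.3 ± 3.70%, and genes at 2000 to 3000 kb 36.7 ± 1.95% and 37.0 ± 1.72%, with overlap. Genes on the strand opposite to Igkc, which join by inversion of the intervening DNA, held 62.5 ± 2.19% and 64.3 ± 1.96%, also with overlap.

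**Figure D5:**
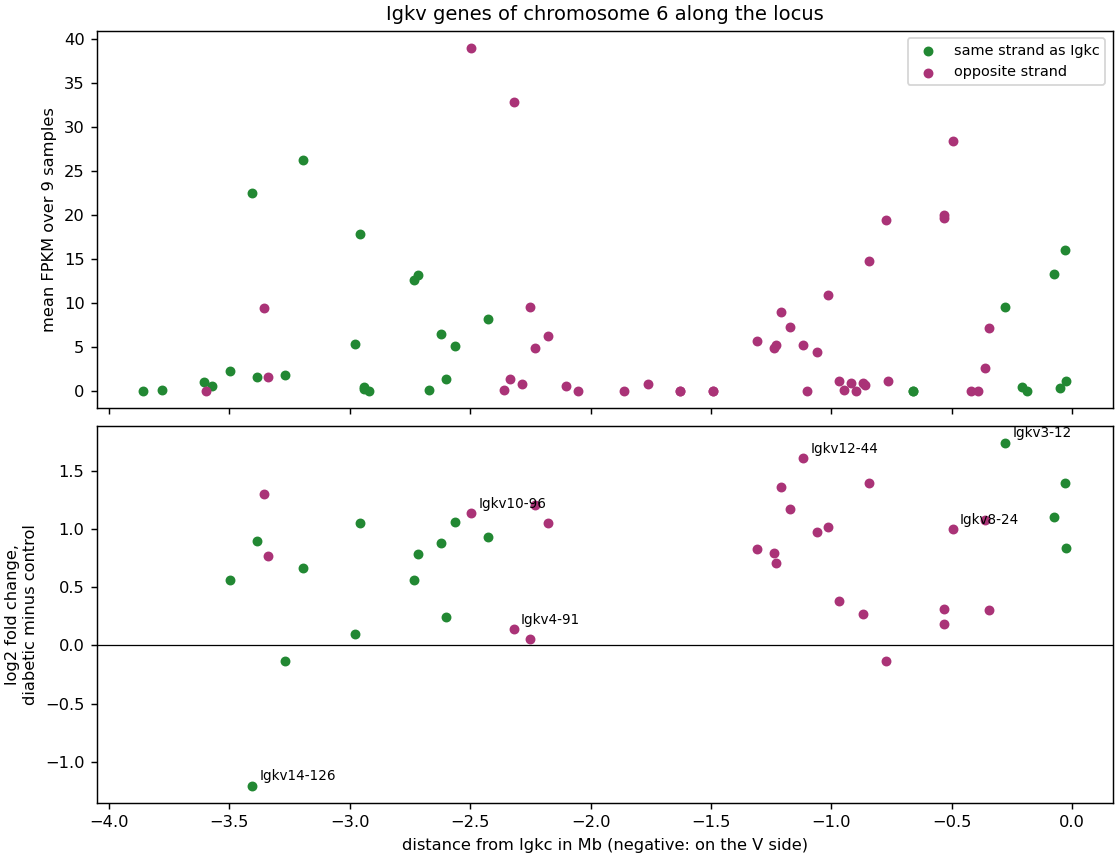
The x axis is the distance from Igkc in Mb, with the V genes on the negative side, and colours give the strand relative to Igkc. The upper panel shows the mean FPKM over 9 samples of the 74 chromosome 6 genes and the lower panel the log2 fold change, diabetic minus control, of those tested. Abundant genes occur along the whole locus, and Igkv14-126, at the far end, has the lowest fold change.

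The genes that act with the V genes were read from lists of related genes. Of 12 tested light chain constant and joining genes 1, Igkc, rose, and the median log2 fold change was 0.74. With 1 sample left out 0 to 6 were called, 6 being the count without diabetic 3. Iglj2 and Iglj4 had 0 reads. The lambda constant genes Iglc1, Iglc2 and Iglc3 had log2 fold changes of 0.75, 0.85 and 1.01 (limma adjusted p = 0.109, 0.052 and 0.082; 0.0228, 0.0107 and 0.00112 without diabetic 3), and Iglc4 of 0.13 (adjusted p = 0.86). Of 5 tested heavy chain constant genes 1, Ighd, rose. Ighm, the heavy chain of IgM, was at 876 ± 273 FPKM (n = 5) and 1276 ± 317 FPKM (n = 4), with a log2 fold change of 0.57 and a limma adjusted p of 0.23. Ighd, the heavy chain of IgD of mature naive B cells, was at 48.6, 37.8, 32.5, 21.1 and 38.1 FPKM in the control and 211, 305, 80.3 and 289 FPKM in the diabetic samples (2.48, SE 0.38, adjusted p = 0.0109). Ighd as a percentage of Ighm, in FPKM, was 4.35 ± 1.79% and 16.5 ± 4.87%, without overlap. B-1 cells are known for high IgM and low IgD.

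Igha, the heavy chain of IgA, was at 1.13, 0.71, 1.78, 0.88 and 1.30 FPKM in the control and 155, 8.64, 2.12 and 14.2 FPKM in the diabetic samples (log2 fold change 2.94, SE 0.90, limma adjusted p = 0.095). It was 1.85 (adjusted p = 0.0626) without diabetic 1 and 3.73 (adjusted p = 0.0260), past the threshold, without diabetic 3. Diabetic 1, the highest, was also the sample highest in Igkv3-2 and in Jchain, the joining chain of secreted IgA and IgM, which was at 24.5 FPKM there and at 0.32 to 5.06 FPKM in the other 8 samples. Whether the 3 genes came from the same cells was not tested. Ighg3 (0.20, adjusted p = 0.69) and Ighg2b (0.52, adjusted p = 0.34) did not pass, and Ighg1, Ighg2c and Ighe were under the filter. Of 9 tested plasma cell genes 0 passed by limma or limma-voom (median log2 fold change -0.033), and at an unadjusted p below 0.05 there was 1 lower and 0 higher. Sdc1 had -0.63 (adjusted p = 0.085) and Mzb1, a chaperone of IgM assembly, 0.55 (adjusted p = 0.31; 0.0348 without diabetic 3).

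B cell genes moved in different degrees beside the V genes. Of 16 general B cell genes 1 rose, the transcriptional coactivator Pou2af1 (log2 fold change 1.45, limma adjusted p = 0.0234), and the median was 0.50, with 4 called without diabetic 3. The Pou2af1 call was lost without control 3, diabetic 1, diabetic 2 or diabetic 4 (adjusted p = 0.0603 to 0.0799). Of 7 tested follicular B cell genes 6 rose, among them the lymphoid homing receptor Ccr7 (1.95, adjusted p = 0.00635), the IgM Fc receptor Fcmr (1.55, adjusted p = 0.00966) and Ighd. The median was 1.55, and 4 to 7 were called with any 1 sample left out. Vpreb3, the 1 tested gene of the list named for the surrogate light chain and recombination, rose (2.29, adjusted p = 0.0106). In the same list Rag2 and Igll1 had 0 reads, Rag1 had 1 and Vpreb1 had 9 over all samples. The rise of Vpreb3 is therefore a value for that gene only. Of 7 tested B-1 cell genes 1 rose, Cd5, which is also a T cell gene (1.68, adjusted p = 0.0144), and the median was 0.22. Of 19 T cell markers 18 rose, 12 to 19 with 1 sample left out. Their median was 2.12, and Cd3e (2.21) and Thy1 (1.996) were among those that rose. Macrophage markers had a median of -0.22, and 1 of 10 fell, the mannose receptor Mrc1 (-1.13, adjusted p = 0.0327), a call lost (adjusted p = 0.0515 to 0.1003) when any sample other than diabetic 3 was left out. Of 7 tested mast cell markers 0 passed by limma or limma-voom, 4 were lower at an unadjusted p below 0.05, and the median was -0.83. T cell markers and follicular B cell genes thus moved in the direction of most light chain V genes between the same samples. The medians of plasma cell and B-1 cell genes, -0.033 and 0.22, did so less or not at all. Both lists held genes that moved either way. The log2 fold change was above 0 for 4 of 9 plasma cell genes (-0.63 to 0.92) and 5 of 7 B-1 cell genes (-0.44 to 1.68). Which cells of these mixed samples gave the listed transcripts was not tested, so the medians do not measure plasma cells or B-1 cells. The part of lymphocytes in the V gene differences was not tested.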

How the data were processed

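Peritoneal exudate RNA of 5 control and 4 diabetic samples was sequenced with a SMARTER messenger RNA kit, per the labels' protocols. The authors deposited 1 table of FPKM values with gene lengths in bases, per the file headers. The aligner, counter and strandedness were not given in the sources used here. GRCm38 and mm10 appear in the submitters' processing notes. FPKM times length gave whole reads for 100% of values (within 0.05), 14156421 to 16169060 per library, and the divisors equal median-of-ratios size factors, so the values are already scaled between samples. Sums over V genes use these reads, per 1e6 reads on that scaling, and 0 sample columns were unmatched.

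Groups were compared with limma 3.58.1 (R 4.3.3) using lmFit and trended, robust eBayes moderation of log2(FPKM + 1), group only, two-sided. The 11193 genes tested reached an FPKM of 1 in 4 or more samples. The threshold was a Benjamini-Hochberg adjusted p below 0.05 over all of them. Fold changes on this scale understate those of low genes. The script was tested on simulated data. Alternatives varied the pseudocount, filter, scaling, weights, moderation and samples, and used voom on recovered reads. The members and lists were chosen with earlier results of these data known. Named genes are passing members, the 12 with the highest mean FPKM, Iglv genes, B-1 associated V genes, constant genes, up to 3 passing genes per list (otherwise 2 with the smallest p), and up to 5 members with most reads in 1 sample. A listed gene that the rule also takes is not reported here. Sequences came from GENCODE M21 transcripts, matched by name for all 78 members. Of these, 76 were on the same chromosome as in the table and 0 had the same start, so coordinates of the table and of GRCm38 were not mixed. Identity was taken over aligned transcripts within a locus. V gene reads are uncertain where copies are close.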

Additional observations from a re-analysis of the deposited data

Results flagged for a closer look

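In 15 of 104 groups of samples examined (14.4%) 1 sample stood far from the rest of its group. Many of these share a sample or rest on very few reads, so the percentage is not set against a chance rate. Diabetic 3 gave 6 of these. It was lowest of the diabetic samples in Igkc (1577 FPKM, the next being 3174), Igkv10-96 (28.03 FPKM, next 62.0), Mzb1 (46.4 FPKM, next 108.6), Pou2af1 (57.3 FPKM, next 126.6) and summed Igkv reads (98.4 per 1e6 reads on the authors' scaling, next 243.0). It was highest in the macrophage gene Mrc1 (41.0 FPKM, next 20.8).

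Control 3 was highest in Igkv14-126, at 77.5 FPKM with the next at 27.5. Diabetic 4 was highest in Igkv12-44, at 13.6 FPKM with the next at 7.60. Diabetic 1 was highest in Igha, at 155 FPKM with the next at 14.2.

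The other 6 rest on 1 to 8 reads over all samples for the V genes, with 0 reads in the rest of the group. They are Igkv20-101-2 in control 2 (0.601 FPKM) and in diabetic 2 (0.9995 FPKM), Igkv2-137 in control 4 (0.426 FPKM), Igkv5-37 in control 3 (0.390 FPKM), Igkv4-80 in diabetic 1 (0.178 FPKM) and the IgE heavy chain gene Ighe in control 2 (0.0994 FPKM). Igkv19-93, with 5 reads, was found in diabetic 1 and 2.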

How the results depend on the processing

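The number of light chain V genes called higher was 4. It was 2 with no filter on low values, 21 with array weights, 22 without control 2 and diabetic 3 (chosen after seeing the data), and 2 to 23 with any 1 sample left out, 23 being the value without diabetic 3. The other planned settings gave 4, or 6 with voom on recovered reads, and 0 were called lower under any setting. Same-numbered samples did not deviate together (correlations 0.02, 0.16, -0.26 and -0.18), so the numbers were not taken to pair them. With a replicate block 1 V gene was called higher, and over all genes 45 higher and 17 lower against 300 and 233. That V gene was not Igkv3-12, Igkv12-44 or Igkv6-32. All-gene calls were 129 and 54 with no filter and 677 and 627 with array weights.

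With 1 sample left out, the log2 ratio of summed Igkv means was 0.65 to 1.00003 and of Iglv 0.91 to 1.38, the lambda share differed by 0.482 to 1.21 percentage points and the effective number by 4.15 to 6.07. Some log2 fold changes that did not pass turned sign. Ighg3 was -0.043 without control 4 (range -0.043 to 0.308 with 1 sample left out). Igkv4-91 was -0.096, -0.0026 and -0.019 without control 1, diabetic 1 and diabetic 4 (-0.096 to 0.417), Igkv8-19 was -0.0095 without control 2 (-0.0095 to 0.516), Igkv8-30 was 0.053 with the replicate block and 0.058 and 0.053 without control 1 and control 5 (-0.417 to 0.058), and Iglc4 was -0.034 and -0.12 without control 3 and diabetic 4 (-0.12 to 0.381). The cause was not tested.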
